A study of Mus musculus with 6 samples.

Results

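The miR-15/16 family and its relatives miR-322 and miR-503 are small regulatory RNAs (microRNAs, miRNAs) that share nearly the same 5′ sequence. Their levels were examined in retinal cells of mice with experimental autoimmune uveoretinitis (EAU), a T-cell-mediated inflammation of the retina used as a model of human uveitis. The members were taken by name: every array spot whose annotated name, split at the slash, held mmu-miR-15a, mmu-miR-15b, mmu-miR-16, mmu-miR-195, mmu-miR-497, mmu-miR-322 or mmu-miR-503, where mmu stands for the mouse. Each name matched 1 capture probe with 4 spots, which gave 7 of the 597 mouse miRNA probes on the array. Retinal cells of EAU-developing mice on day 14 (3 samples) were compared with retinal cells of naive mice (3 samples), all of strain B10.RⅢ at 8 weeks of age. Total RNA (800 ng per sample) received the dye Hy3 and was hybridised, beside a Hy5-labelled pool of the samples as shared reference, to an array of locked nucleic acid capture probes. Dyes were not swapped. The samples were harvested independently, but the number of mice behind a sample, the way EAU was induced and the kinds of retinal cell collected are not stated in the labels, so p-values measure the spread between harvests.

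A miRNA guides a silencing complex to messenger RNAs that pair with its seed, the bases just behind its 5′ end. Members of this family are known for restraining the cell cycle: they target messenger RNAs of D-type and E-type cyclins and of cyclin-dependent kinases, and they accumulate in many cells that leave the cycle. MiR-15a and miR-16 are known as tumour suppressors lost in chronic lymphocytic leukaemia, miR-195 and miR-497 rise when heart muscle stops dividing, and miR-322 and miR-503 promote cell cycle exit in differentiating muscle cells.

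The mature sequences show what joins these miRNAs into 1 family and where miR-503 departs from it. They are given 5′ to 3′ from RefSeq (GRCm38.p6), in which all 7 members were found, with the seed (bases 2 to 8) in capitals.
miR-15a: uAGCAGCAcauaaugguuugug
miR-15b: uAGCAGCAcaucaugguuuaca
miR-16: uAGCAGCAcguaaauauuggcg
miR-195: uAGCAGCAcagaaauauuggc
miR-497: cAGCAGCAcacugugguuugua
miR-322: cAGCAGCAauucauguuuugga
miR-503: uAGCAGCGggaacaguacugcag

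The first 6 members listed share the seed AGCAGCA, which 10 of 1679 mature mouse miRNAs in the RefSeq table carry. The seed of miR-503, AGCAGCG, belongs to miR-503 alone in that table. Behind the seed the members diverge: counted from the 5′ end, miR-16 and miR-195 are the same at 19 of 21 positions and miR-15a and miR-15b at 18 of 22. MiR-503 is the farthest from its own neighbour, with 11 of 22 positions the same as in miR-322. The sequences of the capture probes are not in the files used here, and the files do not tell how far the probes for such close miRNAs capture each other's target.

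The members come from 4 genomic clusters, each with hairpins that lie close together. Mature miR-15a lies at chr14:61632075-61632096 on the minus strand, with 1 copy of miR-16 at chr14:61631936-61631957, and the 2 hairpins, 54 bases apart, overlap the long non-coding RNA gene Dleu2. MiR-15b lies at chr3:69009775-69009796 on the plus strand, with the other copy of miR-16 at chr3:69009918-69009939, and both hairpins overlap the protein-coding gene Smc4. The array has 1 probe for the product of both miR-16 genes and cannot tell them apart. MiR-497 lies at chr11:70234730-70234751 and miR-195 at chr11:70235062-70235082, both on the plus strand, with 241 bases between their hairpins. MiR-322 lies at chrX:53054306-53054327 and miR-503 at chrX:53054027-53054049, both on the minus strand, with 200 bases between hairpins that overlap the long non-coding RNA gene C430049B03Rik.

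The arrays were dim, which decides what can be said of each member. The median Hy3 signal of a spot was 56.2 to 94.8 on EAU arrays and 56.8 to 74.2 on naive arrays, and the median Hy5 signal lay between 33.9 and 38.1 over all arrays. The scanner software's flag for a signal well above background was set for all 28 member spots on each array and separated nothing. A probe was therefore called above the blanks where at least 50% of its spots were brighter than the blank and negative-control spots of its array, taken at 3 median absolute deviations over their median, and 249 to 315 mouse probes were above on EAU arrays, against 252 to 292 on naive arrays. EAU replicate 3 had the fewest in both channels, with 149 mouse probes above the blanks in Hy5. All EAU arrays were scanned on 1 day and all naive arrays on another, and the effect of scan day and that of group cannot be told apart.

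Of the 7 members, 5 were above the blanks on all 3 EAU arrays (miR-15a, miR-15b, miR-16, miR-195 and miR-503), against 39.9% of all mouse probes. Over all 6 arrays 3 members were above, miR-16, miR-195 and miR-503, against 33% of mouse probes. MiR-497 and miR-322 were above the blanks on no array, as were 37.5% of mouse probes. Each kind of cluster thus had a member above the blanks in Hy3 on every array. The clusters of miR-195 with miR-497 and of miR-322 with miR-503 each had 1 member that was above the blanks on none. All these calls are for Hy3. In the Hy5 reference on EAU replicate 3, miR-16 and miR-195 each had 1 of 4 spots over the Hy5 blanks, short of the rule. MiR-503 had 2 of 4 there.

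**Figure D1:**
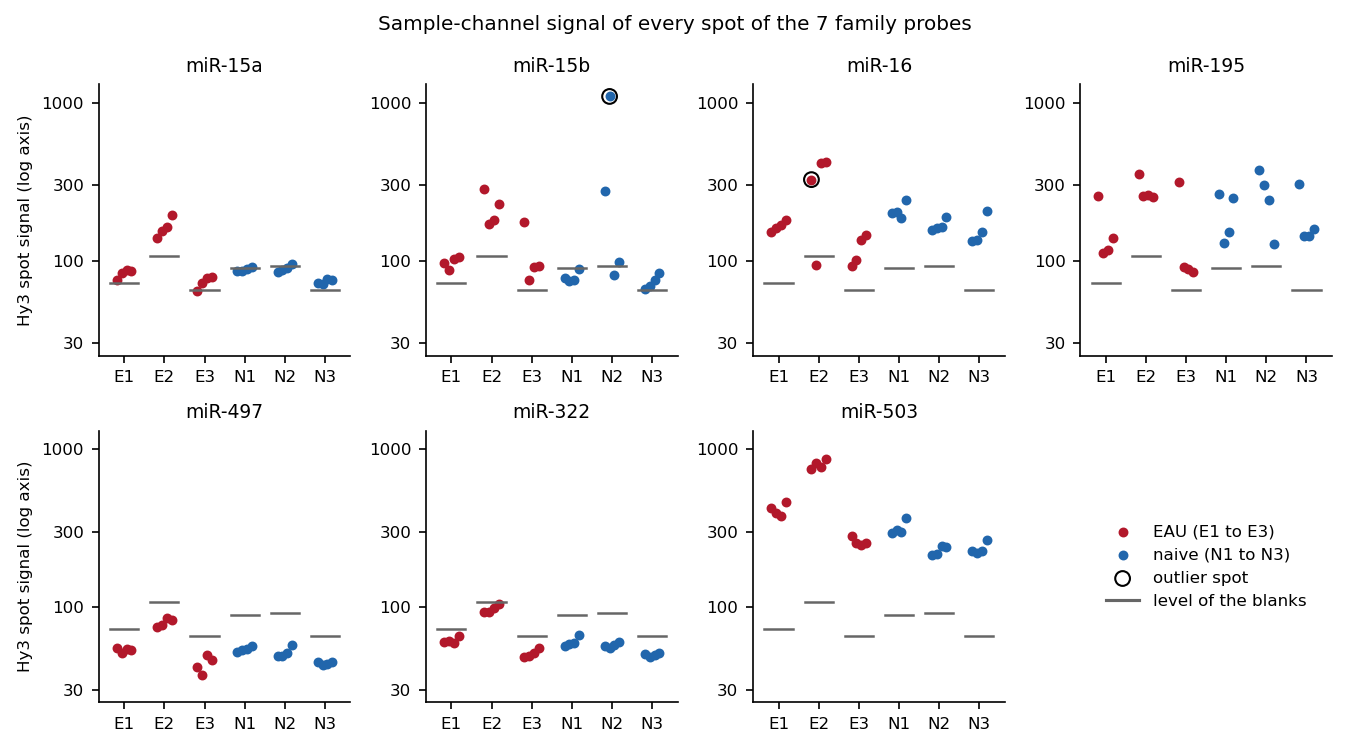
Mean Hy3 signal (log axis, scanner units) of each of the 4 spots of the 7 family probes on EAU arrays E1 to E3 and naive arrays N1 to N3; grey bars mark the level of the blanks on that array and rings mark spots that the software called outliers. The miR-503 spots stand above the blanks everywhere and are highest on E2, the miR-497 and miR-322 spots lie under the level of the blanks on all 6 arrays, and miR-195 has a bright spot apart from the others on several arrays.

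EAU retinal cells gave a higher log2 ratio of miR-503 than naive ones, and the other members differed little. MiR-16 passed the test as slightly lower, a call that 3 of 18 other ways of processing kept, and the other 5 members did not pass. The values compared were log2(Hy3/Hy5) per probe after background correction and loess normalization of each array, so a positive difference means more in EAU. MiR-503 rose 1.35-fold, and miR-16 was 1.10 times as high in naive cells by the ratio, although its mean raw Hy3 signal was 1.12 times as high in EAU. Over all probes 77 of 595 tested passed an adjusted p of 0.05 in limma (12.9%), with 4.2% higher and 8.74% lower. For the family that was 2 of 7, 1 in each direction. The median difference of the 7 members was 0.07 on the log2 scale, beside -0.01 over all tested probes.

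MiR-503, the member with a seed of its own, had log2 ratios of 0.42, 0.52 and 0.49 on EAU replicates 1 to 3 and of 0.10, -0.09 and 0.11 on naive replicates 1 to 3. All EAU arrays lay above all naive arrays, with a gap wider than the range within either group. The group means were 0.47 ± 0.05 in EAU and 0.04 ± 0.11 in naive (SD, n = 3 each). The log2 difference was 0.43 (SE 0.06, 95% interval 0.27 to 0.59, limma adjusted p = 0.0179), which ranked 22 of 595 probes by p.

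The raw signals show what this ratio is made of. The mean Hy3 signal of the miR-503 probe was 414, 799 and 260 on EAU replicates 1 to 3, against 318, 229 and 235 on naive replicates 1 to 3. EAU replicate 2 was the brightest array, and EAU replicate 3 lay among the naive arrays, so the raw groups overlapped, as did those of the other 6 members (7.23% of all probes had raw groups that did not overlap). The Hy5 reference is the same pool on every array. In it the probe read 51.8, 67.7 and 38.2 on EAU arrays and 71.5, 83.2 and 55.4 on naive arrays. On EAU replicate 3 the level of the Hy5 blanks was 39.0, and 2 of the 4 spots lay over it. The ratio of that array thus rests on a reference signal at the level of the blanks. Its reference signal was thus lower on average in EAU, 0.751 times that on naive arrays, and the part of this in the higher ratio was not tested.

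In the sample channel alone, normalized between arrays by quantiles without the reference, miR-503 stood at log2 signals of 8.68, 8.65 and 8.91 in EAU and 8.37, 7.94 and 8.30 in naive. The groups again did not overlap. The difference there was 0.55 (95% interval 0.21 to 0.89) and missed the threshold, with an adjusted p of 0.0668 in limma. The size also depended on the scale: it was 0.78 with a smaller background offset (adjusted p = 0.0330), 1.06 from the scanner software's processed signals (adjusted p = 0.0225), 1.01 in the authors' deposited table (adjusted p = 0.00670) and 0.99 with median centring in place of loess (adjusted p = 0.0993), all in limma. Without EAU replicate 3 or without naive replicate 1 the call was lost at 0.42 and 0.46 (limma adjusted p = 0.0729 and 0.0660).

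**Figure D2:**
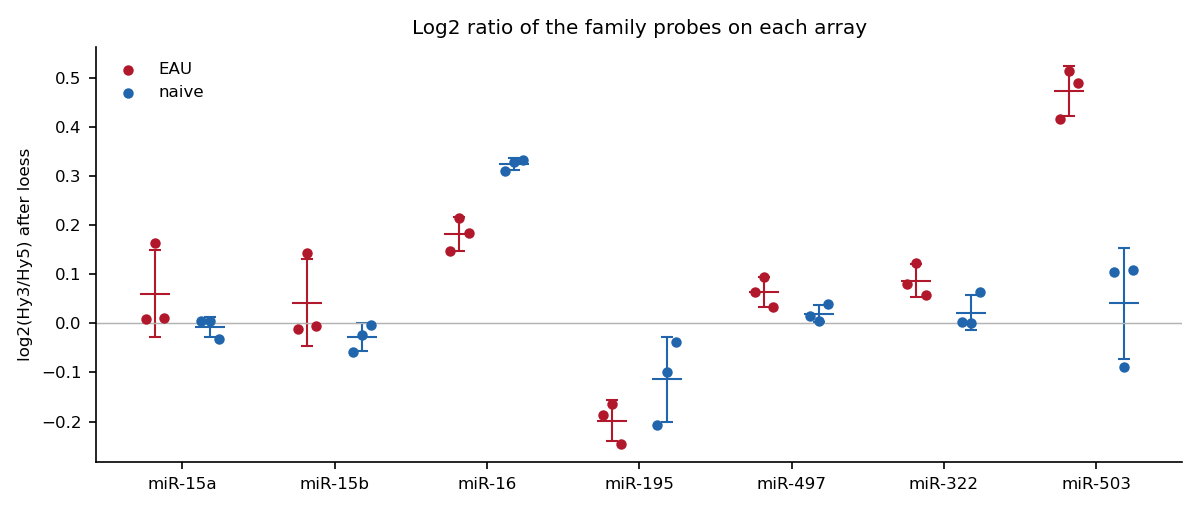
Log2(Hy3/Hy5) after loess of the 7 family probes on each array, EAU left of naive; bars are the group mean ± SD (n = 3 each). The 3 EAU arrays of miR-503, from 0.42 to 0.52, lie above its naive arrays, the EAU arrays of miR-16 lie a little below its naive arrays, and the other members lie near each other in both groups or overlap.

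MiR-322 is the cluster partner of miR-503, yet its probe gave no signal to compare. Its mean Hy3 signal was 61.7, 97.2 and 51.1 on EAU replicates 1 to 3 and 60.4, 57.5 and 50.1 on naive replicates 1 to 3. The level of the blanks on the same arrays was 72.7, 107 and 65.4 for EAU and 89.3, 92.1 and 65.7 for naive, so every array lay under it. The log2 ratio averaged 0.09 ± 0.03 in EAU and 0.02 ± 0.04 in naive (limma adjusted p = 0.166), and no fold is given between signals at the level of the blanks. Mouse miR-322 is the counterpart of human miR-424, for which the array has a probe of its own. That probe, hsa-miR-424, was above the blanks on all 3 EAU arrays and on no naive array, with Hy3 signals of 102, 192 and 67.7 in EAU and 80.0, 71.6 and 65.3 in naive. Its difference did not pass (limma adjusted p = 0.256).

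The probe of the star strand of the same hairpin, miR-503*, did not pass. Its sequence is shown because this probe is named for the other strand of the miR-503 hairpin, although its capture sequence is not known here. Its seed is again in capitals, and it lies at chrX:53053987-53054008 on the minus strand.
miR-503*: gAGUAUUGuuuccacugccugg
Mean Hy3 signals of 2377, 3955 and 1618 in EAU and 2154, 2187 and 2015 in naive placed this probe far over the blanks on all arrays. Outlier spots left out of its ratio numbered 1, 2 and 1 of 4 on EAU replicates 1 to 3 and 1, 0 and 1 on naive replicates 1 to 3. Log2 ratios were -0.32, -0.17 and -0.29 in EAU and 0.07, -0.04 and -0.17 in naive. All EAU arrays lay below all naive arrays, EAU replicate 2 only just below naive replicate 3, and the difference of -0.21 (SE 0.07) did not pass (limma adjusted p = 0.104). In the sample channel alone it was 0.01 (limma adjusted p = 0.987). The human probe hsa-miR-503, whose sequence is not in the files used here, was above the blanks on no array.

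Further along the X-chromosome locus, 7 of 8 listed miRNAs were on the array and none of the 7 passed in either direction. MiR-351, the member of this list that was above the blanks on all 6 arrays, differed by 0.06 (SE 0.07, limma adjusted p = 0.591), with overlapping groups. MiR-542-3p, above the blanks on 2 EAU and 3 naive arrays, differed by -0.04 (limma adjusted p = 0.353). The list had a median difference of -0.0013 beside -0.01 over all probes, and 3 of its 7 probes were above the blanks on no array.

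**Figure D3:**
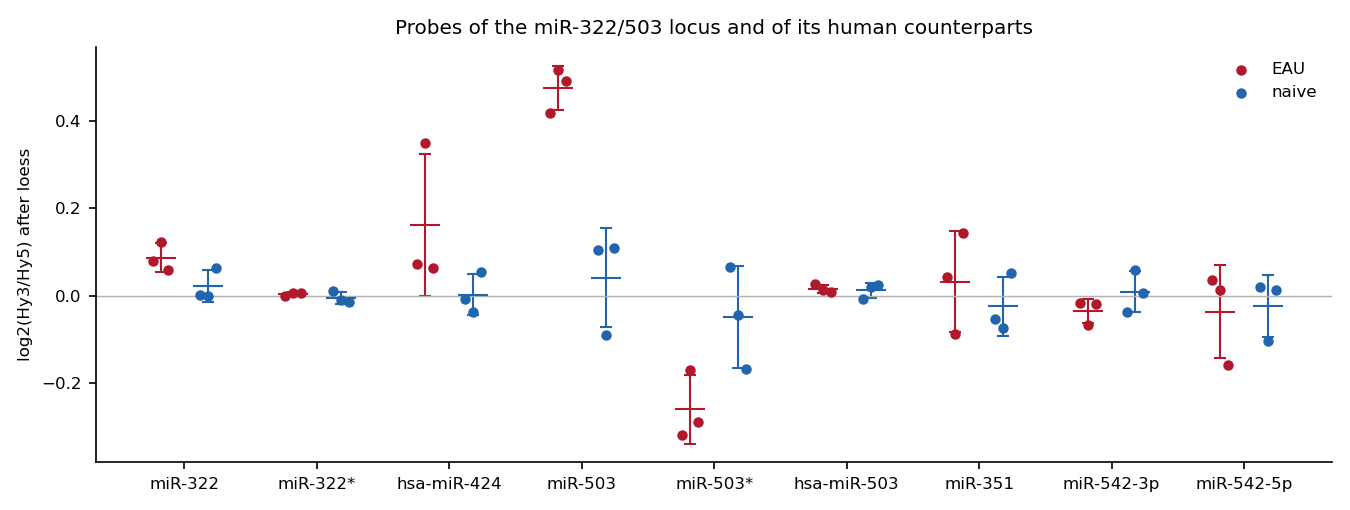
Log2(Hy3/Hy5) after loess, EAU left of naive, of the probes for miR-322, miR-503, their star strands, their human counterparts and miR-351, miR-542-3p and miR-542-5p of the same locus; bars are the mean ± SD (n = 3 each). Of the probes shown, only miR-503 has all 3 EAU arrays above 0.4, and miR-503* lies below 0 on all 3 EAU arrays.

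In the miR-15/16 clusters, miR-16 was slightly lower in EAU. Its log2 ratios were 0.15, 0.22 and 0.19 on EAU replicates 1 to 3 and 0.31, 0.33 and 0.33 on naive replicates 1 to 3, without overlap. The means were 0.18 ± 0.03 in EAU and 0.32 ± 0.01 in naive, and the difference was -0.14 (SE 0.02, 95% interval -0.20 to -0.08, limma adjusted p = 0.0221). The difference was small beside that of miR-503, and the spread within the groups was smaller still. Raw Hy3 signals were 166, 313 and 118 in EAU and 207, 168 and 157 in naive and overlapped.

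The miR-16 call changed with the processing. On EAU replicate 2 the 4 miR-16 spots read 326, 94.2, 413 and 421, and the spot at 326 was marked an outlier and left out. With outlier spots kept, the difference was -0.10 (limma adjusted p = 0.214), and in the sample channel alone it was -0.18 (limma adjusted p = 0.580). Of 18 other ways of processing, 3 kept the call, with median centring the difference was 0.0027, and without EAU replicate 3 or any 1 of the naive replicates the limma adjusted p lay between 0.0653 and 0.0854.

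MiR-15a and miR-15b, which share clusters with miR-16, did not pass. MiR-15a had log2 ratios of 0.01, 0.16 and 0.01 in EAU and 0.00, 0.01 and -0.03 in naive. The EAU arrays lay above the naive ones by very little apart from EAU replicate 2, and the difference was 0.07 (95% interval -0.05 to 0.19, limma adjusted p = 0.348). Its raw Hy3 signal was 83.1, 163 and 73.2 in EAU and 88.1, 89.1 and 73.6 in naive, and it was above the blanks on 1 naive array only. Groups did not overlap in the log2 ratio for 3 members (miR-15a, miR-16 and miR-503), where 46.5% of all probes had groups that did not overlap.

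MiR-15b stood at -0.01, 0.14 and -0.01 in EAU and -0.06, -0.02 and -0.00 in naive, with overlap. The difference was 0.07 (95% interval -0.05 to 0.19, limma adjusted p = 0.337). On naive replicate 2 its spots ranged from 80.7 to 1092, and the brightest was an outlier that was left out. In the authors' deposited table the difference was 0.53 (limma adjusted p = 0.0558), which also missed the threshold.

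In the cluster of miR-195 and miR-497, miR-195 was not called by the ratio. Its log2 ratios were -0.19, -0.16 and -0.24 in EAU and -0.21, -0.10 and -0.04 in naive, with overlap. The difference was -0.08 (95% interval -0.21 to 0.04, limma adjusted p = 0.271). In the sample channel alone it stood at 7.38, 7.50 and 7.42 in EAU and 7.75, 7.73 and 7.83 in naive. There the groups did not overlap and miR-195 was the 1 member that passed, with a difference of -0.33 (SE 0.06, limma adjusted p = 0.0219). Of all probes 9.58% passed there, 3.7% higher and 5.88% lower in EAU. Members without overlap in the sample channel numbered 3 (miR-195, miR-322 and miR-503), against 29.6% of all probes.

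The spots of miR-195 were uneven, and some lay on a raised local background. On EAU replicate 3 the 4 spots read 313, 91.7, 89.1 and 84.6 over Hy3 backgrounds of 148, 25, 23 and 23, and on naive replicate 3 they read 304, 143, 144 and 158 over 124, 23, 22 and 22. In all, 7 of the 24 miR-195 spots lay on a local background over 1.5 times the median of their array, as did 4 of 24 for miR-15b and 0 of 24 for each of the other 5 members. With such spots left out, an alternative chosen after seeing the data, the sample channel alone gave -0.20 for miR-195 (limma adjusted p = 0.668) and the ratio gave 0.09 (limma adjusted p = 0.377). Other ways of reading the sample channel, also chosen after seeing the data, kept the call: the spot median gave -0.52 (limma adjusted p = 0.0219), and the channel after loess and quantile scaling of the average signal gave -0.21 (limma adjusted p = 0.0307).

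MiR-497 was below the blanks on every array. Its Hy3 signal was 53.6, 80.2 and 43.8 in EAU and 54.1, 51.9 and 44.2 in naive. The log2 ratio averaged 0.06 ± 0.03 in EAU and 0.02 ± 0.02 in naive (limma adjusted p = 0.215), and no fold is given.

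**Figure D4:**
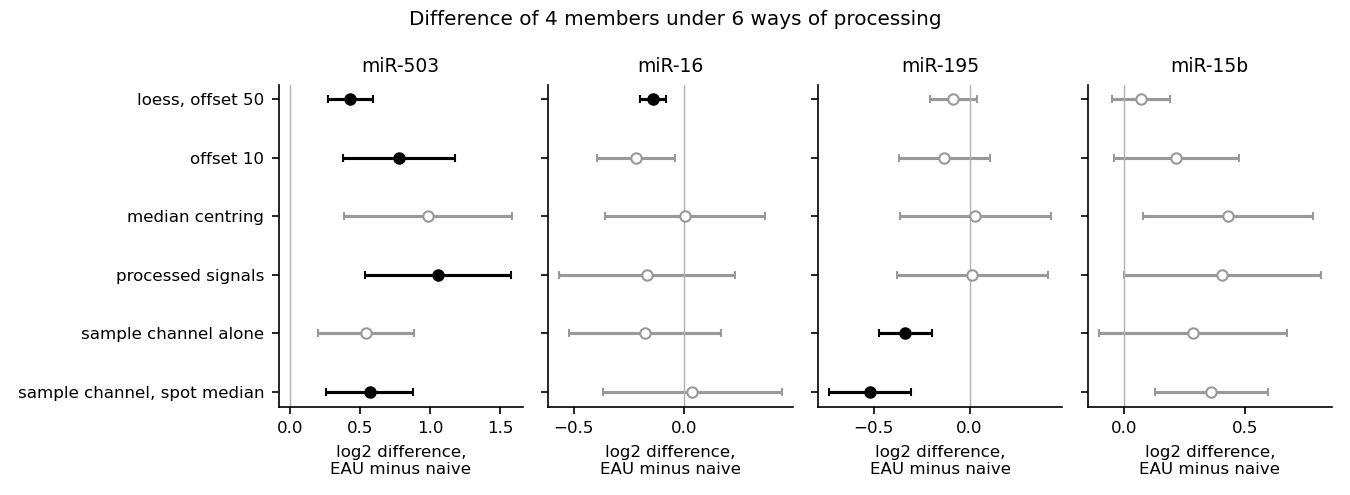
Log2 difference, EAU minus naive, of miR-503, miR-16, miR-195 and miR-15b under 6 ways of processing; bars are 95% intervals from limma, and filled points have an adjusted p under 0.05. MiR-503 lies right of 0 in all 6, miR-16 is filled only with loess and an offset of 50, and miR-195 is filled only in the sample channel.

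The cluster of miR-322 and miR-503 was set against the other clusters by subtracting log2 ratios of members on the same array. Of 6 such pairs, the 4 that hold miR-322 or miR-497 rest on a probe under the blanks and are not read as differences between clusters, which leaves miR-503 against miR-16 and against miR-195. MiR-503 minus miR-16 was 0.27 to 0.30 on EAU arrays and -0.42 to -0.21 on naive arrays, a difference of 0.57 between the groups. MiR-503 minus miR-195 was 0.60 to 0.73 in EAU and 0.01 to 0.31 in naive, a difference of 0.52. In both pairs the groups were apart, and each had an exact two-sided permutation p of 0.1, the smallest that 3 against 3 arrays allow (0.12 adjusted over all 6 pairs).

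Pairs were computed in 20 alternatives, which are not all separate checks. Median centring and no normalization give the same pair values, since centring cancels between probes of 1 array. Over the 20, miR-503 minus miR-16 lay between 0.51 and 1.23. MiR-503 minus miR-195 lay between 0.34 and 1.09, and both pairs were positive in 20 of 20. The adjusted exact permutation p of both was at most 0.3, its value with the processed signals and in the deposited table, and it passed the threshold nowhere, since 3 or fewer arrays a group cannot reach it.

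The star strands of the family were largely at the level of the blanks. Of 7 listed, 5 were on the array, none passed in either direction, and 3 were above the blanks on no array. MiR-16* was above the blanks on all 3 EAU arrays and on no naive array. Its Hy3 signals were 89.9, 158 and 69.1 in EAU and 79.0, 72.1 and 63.1 in naive, with overlap. The difference passed neither by the ratio (limma adjusted p = 0.283) nor in the sample channel alone (limma adjusted p = 0.0847). The lower bound on its level in EAU was 1.14-fold over naive in the sample channel. It is given because of that pattern of calls and is not a separate test of a difference. This bound was taken after loess and quantile scaling of the average signal, is open to a dye bias between arrays because dyes were not swapped, and counts the naive arrays at the lowest level above the blanks or the probe's own, whichever was higher.

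Other miRNAs known to act on the cell cycle were compared with the family. Of 7 that restrain it, miR-34 and miR-449 members, none passed in either direction, and the list had a median of -0.06. Of these 7 probes, 4 were above the blanks on no array. Of 11 that favour cell cycle entry, members of the miR-17 to miR-92 clusters and their paralogs, 4 were above the blanks on no array. Of the 11, 1 fell, 10 did not pass and none rose. The 1 was miR-106b, with log2 ratios of 0.28, 0.36 and 0.12 in EAU and 0.53, 0.64 and 0.62 in naive and a difference of -0.34 (SE 0.07, limma adjusted p = 0.0380). Its groups did not overlap, but it kept the call in 5 of 18 other ways of processing and, of the fits that leave out 1 array, only without EAU replicate 2.

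Marker miRNAs of other cell types that retinal samples can hold were read next. Of 4 leukocyte miRNAs, 1 rose by the ratio, miR-142-3p, made in blood-lineage cells (limma adjusted p = 0.0166). Its bound between group means, of the kind given for miR-16*, was 1.82-fold in the sample channel. The other 3 did not pass, among them miR-150 at -0.10 (limma adjusted p = 0.294). The mean of the list was -0.37 to -0.18 on EAU arrays and -0.66 to -0.44 on naive arrays. MiR-142-3p and miR-142-5p were above the blanks on no naive array and on all 3 EAU arrays. In the sample channel alone miR-142-3p missed the threshold (1.27, limma adjusted p = 0.0519) and miR-142-5p passed (1.05, limma adjusted p = 0.00939). There miR-150 and miR-223 did not pass. MiR-142-3p lost its call without EAU replicate 3 or naive replicate 2 (limma adjusted p = 0.0712 and 0.0612). Of 3 erythroid miRNAs 1 fell, miR-486 (-0.23, limma adjusted p = 0.0463, a sign that turned in the sample channel alone, with median centring and with no normalization), the median of the list was 0.01, and the list mean was -0.22 to -0.13 in EAU and -0.17 to -0.12 in naive. Neither endothelial miRNA passed, and that list lay at 0.06 to 0.20 in EAU and 0.13 to 0.18 in naive, with overlap.

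The retinal markers were present in both groups: the 3 photoreceptor miRNAs of the miR-183 cluster and both pigment epithelium miRNAs exceeded the blanks on each of the 6 arrays, as did 3 of 4 neuronal ones. The photoreceptor list had a mean of -1.05 to 0.05 in EAU and 0.75 to 0.81 in naive, with 1 of 3 past the threshold and lower, miR-183, which had a value on 2 EAU arrays. All 3 were lower in the sample channel alone: miR-183 by -2.22, miR-96 by -1.79 and miR-182 by -2.11 on the log2 scale (limma adjusted p = 0.000860, 0.00888 and 0.0132). Of the neuronal list 3 of 4 were lower, with a mean of -0.63 to -0.04 in EAU and -0.05 to 0.09 in naive. Among those called, miR-128 was above the blanks on only 1 EAU and 1 naive array. Of the pigment epithelium list 2 of 2 were lower, with a mean of -0.24 to 0.06 in EAU and 0.44 to 0.54 in naive. Neuronal miR-124, which had a value on 2 EAU arrays, was also lower in the sample channel alone (-2.06, limma adjusted p = 0.00939). As outliers, 3 of its 4 spots were left out on EAU replicates 1 and 3 and naive replicates 2 and 3. On EAU replicate 2 all 4 were. Its log2 ratio of -1.95 on EAU replicate 3 enters the neuronal list mean of that array. List means average only the miRNAs with a value. MiR-9, miR-204 and miR-211 were lower in the sample channel alone too, while miR-128 and miR-129-3p did not pass there. Of the 6 calls by the ratio, that of miR-211 held in each fit without 1 array, and the others (miR-183, miR-9, miR-128, miR-129-3p and miR-204) were each lost in at least 3 such fits, among them those without naive replicate 1, 2 or 3. Whether these shifts in cell markers have a part in the family's values was not tested. In such bulk samples, fewer cells of a type and less RNA per cell cannot be told apart.

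The probes with the pattern most like that of miR-503 and of miR-16 were found by the root mean square difference of log2 ratios over the 6 arrays, after each probe's own mean was removed, among 280 probes above the blanks on at least 3 arrays. For miR-503 they were miR-1192 (0.04), miR-881* (0.06) and miR-466a-5p (0.06), where the median of all candidates was 0.27. For miR-16 they were miR-101a (0.01), miR-135a (0.03) and miR-770-5p (0.03), where the median was 0.12. No other member of the family was among the nearest 3 of either, since members were left out of this search.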

How the data were processed

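The authors deposited a scanner file for each array, with the intensity of 8720 spots in the Hy3 and Hy5 channels and their local background. Per the file headers, these were written by Agilent Feature Extraction 9.1.3.1. The authors' deposited value table (1972 rows) holds a ratio on a linear scale that follows Hy3 over Hy5, with a median correlation across arrays of 0.934 to the processed signals' log2 ratio over 191 probes. How it was normalized and centred is not known here, its column medians were 0.809, 0.886 and 0.807 for EAU replicates 1 to 3 and 0.879, 0.851 and 0.769 for naive replicates 1 to 3, and 36 rows above 32 on every array were left out. Mean spot signals were corrected by normexp (offset 50), normalized within each array by loess (control spots weighted 0) and averaged per probe without outlier spots, in limma 3.58.1 (R 4.3.3). EAU was compared with naive by lmFit and eBayes, two-sided, with Benjamini-Hochberg adjustment over all 595 mouse probes that had at least 2 values per group and a threshold of 0.05; no filter on dim probes was used. Of these steps, only the limma fit was tested on simulated data.

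Named are the 7 members, list members past the threshold (up to 4 a list), the 3 nearest patterns and some probes of other species with the family's names. Not all such probes are given, and none passed by the ratio or in the sample channel alone. Other list members given with values, and the human star-strand probes, were chosen after their values were seen. The members and lists were chosen with earlier results of these data known. Alternatives were the offset, the normalization, the channel, the deposited table, outlier spots, filters, array weights, a replicate block and leaving out each array; the spot median, the sample channel after loess and quantile scaling of the average signal, and leaving out spots on a raised local background were added after seeing the data. The number of arrays limits the precision. The labels give no shared source for a replicate number, so the numbers were not taken as pairs. Correlations of deviations over 592 probes were 0.19, -0.15 and 0.29 for same-numbered replicates 1 to 3. Those of differently numbered replicates ran from -0.44 to 0.30, and so few correlations cannot decide whether samples were paired.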

Additional observations from a re-analysis of the deposited data

Results flagged for a closer look

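The probe for hsa-miR-424, the human counterpart of mouse miR-322, lies outside the comparison of mouse probes and was above the blanks on all 3 EAU arrays but on no naive array. The calls on replicate 3 were close: the Hy3 signal was 67.7 against a blank level of 65.4 in EAU, and 65.3 against 65.7 in naive. In the sample channel after loess and quantile scaling of the average signal, the lower bound on its level in EAU was 1.19-fold over naive. This bound is given because of that pattern of calls and is not a separate test of a difference. The share of all probes with the same pattern was not counted. The difference in the sample channel alone, 0.36, did not pass (limma adjusted p = 0.176), and raw Hy3 signals overlapped. The difference of this probe in log2 ratio did not pass either (limma interval -0.05 to 0.37, adjusted p = 0.256). The ratio groups did not overlap, as for 46.5% of mouse probes, but came close, at 0.064 on EAU replicate 3 and 0.053 on naive replicate 3. Human star-strand probes of the family did not pass either. By the ratio hsa-miR-16-1* differed by -0.12 (limma adjusted p = 0.0573), without overlap. In the sample channel alone hsa-miR-195*, above the blanks on 3 EAU arrays and 1 naive array, differed by 0.36 (limma adjusted p = 0.0648).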

How the results depend on the processing

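The number of mouse probes called, 77 (25 higher and 52 lower in EAU), moved with the processing: it was 2 with median centring (1 higher and 1 lower), 25 with no normalization (21 and 4), 33 with loess on spots above the blanks (18 and 15), 47 with the spot median (21 and 26) and 40 with spots on a raised local background left out. Leaving out 1 array gave 7 to 77 calls, with 7 without EAU replicate 3, 9 without naive replicate 1, 15 without naive replicate 2 and 36 without naive replicate 3. The split was 42 higher and 30 lower with the processed signals, and 42 and 40 in the deposited table. Of the members, 2 were called. It fell to 0 for median centring, for unnormalized ratios, and for the sample channel without raised-background spots. It was 1, miR-503, with an offset of 10, loess on bright spots, processed signals, the deposited table, outlier spots kept, the filter above the blanks and either spot median of the ratio, and 1, miR-195, in the sample channel alone. With the spot median in the sample channel, or that channel after loess and quantile scaling, the 2 called were miR-503, higher (adjusted p = 0.0448 and 0.0305 in limma), and miR-195, lower (0.0219 and 0.0307), in place of miR-503 and miR-16. Leaving out 1 array left 0 to 2. In 24 of 24 alternatives miR-503 kept its direction, with the call in 13 of 18 ways of processing and 4 of 6 fits without 1 array. These are not separate checks. Its difference stayed at 0.43 with outlier spots kept, raised-background spots left out, probes of all species, the filter above the blanks and the replicate block. Those settings could not turn its direction and changed only its error or adjusted p.

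The replicate block left 2 calls over all probes, both lower, and 0 among the members, with adjusted p = 0.0940 for miR-503 and 0.0851 for miR-16 in limma. The labels give no shared source for a replicate number, so this fit is given once.

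Signs turned as follows. With median centring miR-16 was at 0.0027, miR-195 at 0.030 and miR-486 at 0.099; without any normalization they were at 0.072, 0.10 and 0.17. MiR-195 was at 0.014 with the processed signals, 0.033 in the deposited table, 0.019 with the spot median, 0.019 with that and outlier spots kept, and 0.090 with raised-background spots left out. In the deposited table miR-322 was at -0.092, the pair differences of miR-322 minus miR-195 and minus miR-497, which rest on probes under the blanks, at -0.12 and -0.61. MiR-322 minus miR-195 was at -0.024 with raised-background spots left out. In the sample channel miR-486 was at 0.13 alone, 0.045 after loess and quantile scaling, 0.13 with the spot median and 0.053 with raised-background spots left out. In the sample channel miR-128 was at 0.034 with raised-background spots left out, and miR-16 was at 0.035 with the spot median. The cause was not tested. MiR-322 and miR-497 gave no value under the filter above the blanks. Signals near the blanks limit miR-322, miR-497 and, on naive arrays, miR-15a and miR-15b.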
